A study of Mus musculus with 4 samples.

Results

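The clustered narrow control ARID1A peaks are 300 short stretches of the mouse genome at which ARID1A was found in both control libraries of 266-6 cells and which lie close to another such stretch. They were chosen by position, overlap and width in the control lists. From the 7112 peaks of control replicate 2, those on 15 numbered autosomes were kept (4743; chromosomes 5, 10, 11 and 15 were left out), then those overlapping a control replicate 1 peak by at least 1 bp (1891, called shared peaks below), then those with a gap of at most 12.5 kb to another shared peak (410), then those under 500 bp wide (300). In all, the 4 lists of the series hold 11220 peaks. The members are compared with the 1150 shared peaks under 500 bp that had no shared neighbour within 12.5 kb, called solitary peaks. The number of members depends on the requirement of both control libraries: control replicate 2 taken alone gave 1433 such peaks, and control replicate 1 taken alone gave 600.

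ChIP-seq of ARID1A was made on 266-6 cells, a mouse pancreatic acinar cell line, in 2 control libraries and 2 libraries of cells treated with epidermal growth factor (EGF). All cells were starved of serum for about 14 h. The EGF group then received 40 ng/ml EGF for 8 h, and the control group 0.1% bovine serum albumin. Libraries are called duplicates in the labels, with no word on separate cultures, so the spread between them may be technical, and all cells are of 1 line.

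ARID1A is a subunit of the BAF class of SWI/SNF complexes, which use ATP to slide or evict nucleosomes. These complexes are brought to DNA largely by other factors, and they are known for keeping enhancers accessible. Active enhancers often occur in groups along the chromosome, and a distance of 12.5 kb is a common setting for joining neighbouring enhancers into 1 domain. In acinar cells, which make the digestive enzymes of the pancreas, SWI/SNF complexes are linked to the upkeep of cell identity. All positions here are in mm9 and counted from 1. No gene was assigned and no sequence is shown, because the reference used here is of another build.

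Shared control peaks lay near each other more often than under uniform placement. Of the 1891 shared peaks, 410 (21.7%, exact Clopper-Pearson 95% interval 19.8% to 23.6%) had another shared peak within 12.5 kb. For the same number of peaks per chromosome placed independently and uniformly between the first and last peak, 2.90% would have one, so the observed share was 7.47 times that value. With the number of shared peaks in each 5 Mb bin in place of the chromosome's, the expectation was 4.17% and the ratio 5.20. These expectations are closed formulas that allow for neither local input nor mappability, and since the same positions chose the members, the ratio is a description. The interval covers counting error only.

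The excess was steepest at short distances. Within 500 bp lay 6.40% of shared peaks against 0.207% expected, within 5 kb 14.5% against 1.23%, and within 25 kb 28.6% against 5.62%. At 100 kb the shares were 49.8% and 20.3%. The ratio thus went from 30.9 at 500 bp to 2.46 at 100 kb, with no step at 12.5 kb. Joining control replicate 2 peaks that lie in 1 control replicate 1 peak lowered the ratio at 500 bp to 14.7, and the one at 12.5 kb to 6.62.

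**Figure D1:**
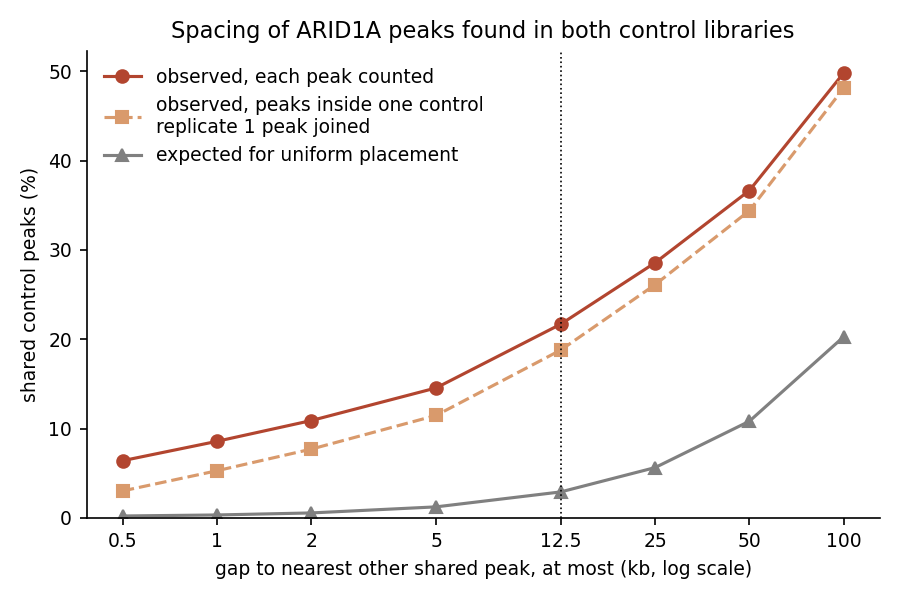
Share of the shared control peaks (vertical axis, percent) whose nearest other shared peak lies within the gap on the horizontal axis (kb, log scale), for each peak counted, for peaks inside 1 control replicate 1 peak joined, and for uniform placement. The dotted line marks 12.5 kb, where the 3 values were 21.7%, 18.8% and 2.90%.

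Every one of the 15 chromosomes took part. The share of shared peaks with a neighbour within 12.5 kb ran from 14.7% on chromosome 17 to 28.0% on chromosome 19, and on each of the 15 the whole interval lay above the expected share. Chromosome 4 had the most members, 35, followed by chromosome 16 with 33, and chromosome 18 had the fewest, 7. The expected share varied more in proportion than the observed one, from 1.25% on chromosome 13 to 4.90% on chromosome 16. As a result the ratio was 17.9 on chromosome 13 and 5.21 on chromosome 16, although their observed shares were 22.4% and 25.5%.

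**Figure D2:**
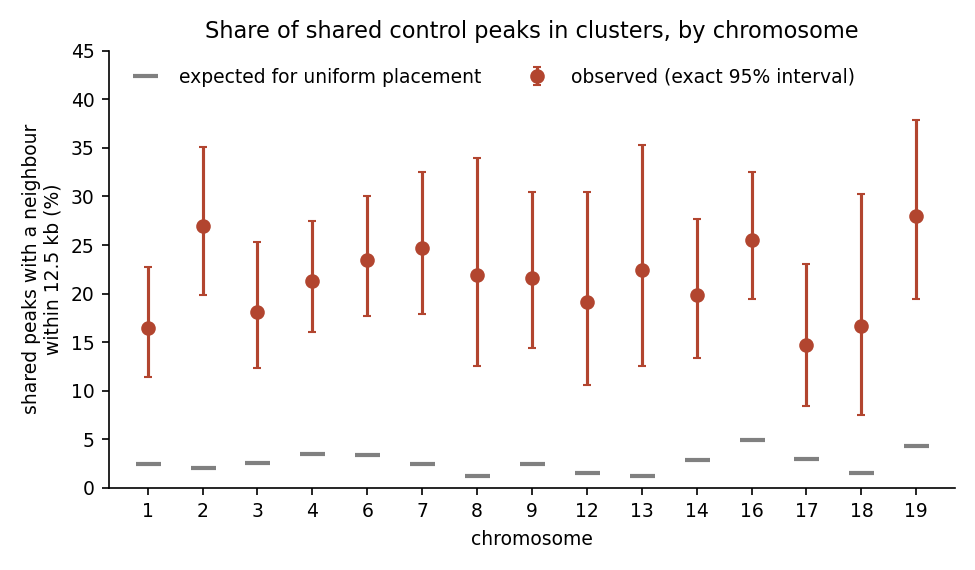
Share of shared control peaks with another within 12.5 kb (percent, points with exact 95% intervals) on each of the 15 autosomes, with the share expected for uniform placement (grey bars). All observed points lie between 14.7% and 28.0%, above expected shares of 1.25% to 4.90%.

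Most clusters were pairs. Joined at gaps of up to 12.5 kb, the 410 peaks formed 193 clusters: 172 of 2 peaks, 18 of 3 and 3 of 4. Members occurred in 178 of them, 103 of which held narrow peaks only and 75 of which also held a peak of 500 bp or wider. The clusters spanned 467 bp to 21863 bp, with a median of 3874 bp. The nearest neighbour of a member was narrow for 224 members (74.7%) and broad for 76.

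Gaps fell into a very short group and a wide spread. The median gap of a member was 1680 bp, with a range of 51 to 12396 bp, and that of solitary peaks was 193076 bp. At 98 members (32.7%) the gap was at most 500 bp, at 29 it was over 500 bp and up to 1 kb, and at 101 (33.7%) it was over 5 kb. The 3 members nearest to the limit, at chr19:3820142-3820495, chr1:131796991-131797247 and chr1:131784233-131784721, had gaps of 12396, 12269 and 12269 bp, and the solitary peaks nearest to it, at chr4:134506950-134507149, chr7:28258849-28259106 and chr3:107851289-107851635, had 12898, 12991 and 13107 bp. Their folds in control replicates 1 and 2 were 6.41 and 5.77, 7.18 and 7.47, and 5.38 and 8.48 inside the limit. Outside it they were 5.14 and 5.49, 5.19 and 5.09, and 6.04 and 5.09. The widest member, at chr7:125847872-125848370, was 499 bp, and the narrowest clustered peak above the width limit, at chr3:53361481-53361981, 501 bp.

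For some members the neighbour lay inside the same control replicate 1 peak. This held for 59 members (19.7%), over 32 control replicate 1 peaks, with gaps of 51 to 339 bp (median 66 bp). There control replicate 1 had 1 peak, with a median width of 474 bp, where control replicate 2 had several, with members of a median 257 bp. The other 241 members (80.3%) had a neighbour in a separate control replicate 1 peak, at a median gap of 3723 bp, so that both libraries called the places separately. With control replicate 2 peaks joined inside a control replicate 1 peak, 241 clustered narrow regions remained in number, and with peaks within 500 bp merged in both lists there were 186.

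The clusters with the most members show the placement of these peaks in both control libraries. A total of 7 clusters are tied at 3 members, and the 5 with the highest summed score are described. In the first, chr13:29918416-29922636, 3 peaks lay within 4221 bp. Their deposited folds were 7.55, 4.24 and 6.45 in control replicate 1 and 13.2, 3.73 and 10.5 in control replicate 2. A deposited fold is the reads at the summit, scaled by 1 factor per library, over the local input, with 1 added to each. The weak middle peak lay at 2.59 times the genome-wide input background, and the outer ones at the background itself.

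The second cluster, chr6:134449060-134460290, held 3 members with folds of 5.71, 5.98 and 5.71 in control replicate 1 and 7.30, 6.54 and 9.51 in control replicate 2. The third, chr7:4033275-4043318, held a broad peak of 561 bp besides its 3 members. Its members had folds of 6.87, 7.92 and 8.29 in control replicate 1 and 10.0, 5.17 and 5.55 in control replicate 2, so the first member was the weakest in control replicate 1 and the strongest in control replicate 2. In the fourth, chr17:29058087-29068100, the folds were 5.55, 7.26 and 3.81 against 5.83, 7.87 and 5.77, and in the last, chr6:30419367-30431520, 4.90, 4.46 and 7.34 against 6.01, 5.09 and 7.30. All 16 peaks of these 5 clusters had a control replicate 1 peak of their own, and none was called with EGF.

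**Figure D3:**
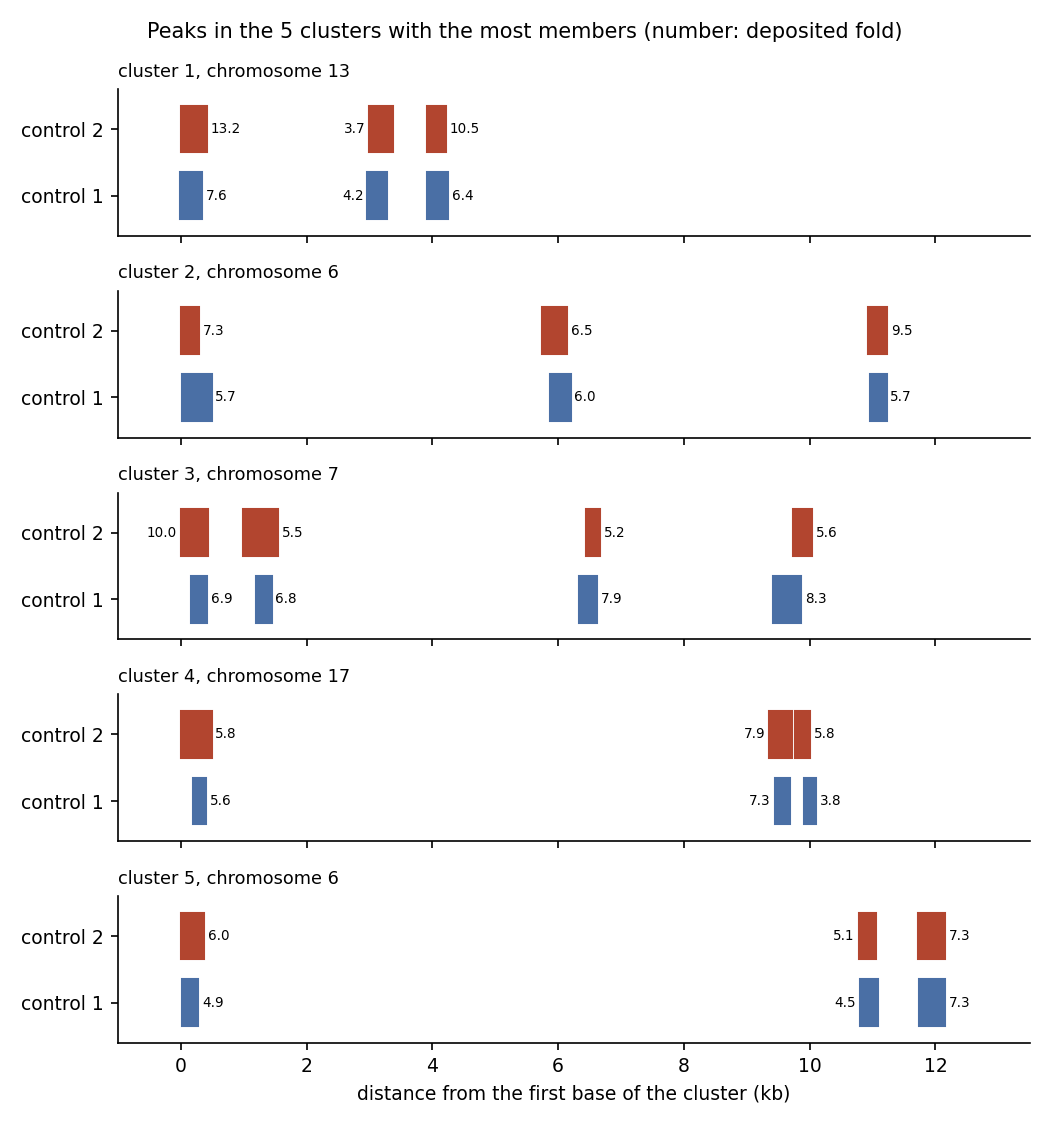
Position of every called peak in the 5 clusters with the most members, as distance from the first base of the cluster (kb), in control replicate 2 (red) and control replicate 1 (blue), with the deposited fold beside each box. The 16 peaks of control replicate 2 each face a separate peak of control replicate 1, and neither EGF list has a peak here.

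The strongest members did not reach the strongest shared peaks. The highest by score in control replicate 2, at chr17:14863704-14864173, reached folds of 8.97 (control replicate 1) and 14.4 (control replicate 2), from 26 and 41 reads at the summit, and its neighbour lay 86 bp away. Over all members the highest fold was 13.53 in control replicate 1, at chr1:145867014-145867463, and 14.4 in control replicate 2. Among solitary peaks, which meet the same width limit, the highest folds were 20.5 and 16.7 in these libraries. Among all shared peaks, which include those of 500 bp or wider, they were 25.9 and 22.8. These groups hold 300, 1150 and 1891 peaks, and the effect of group size on a maximum was not tested. Next by score came chr1:73216204-73216520 with 8.69 and 13.0, chr14:66006990-66007450 with 10.3 and 12.7, and the first peak of the chromosome 13 cluster above. The member at chr2:157502858-157503297 had 10.4 and 10.8, with 40 reads in each library at 2.07 times the input background. Those at chr17:4734277-4734771 and chr16:30513779-30514168 had 8.74 and 11.6, and 6.62 and 8.89. The first peak of the chromosome 7 cluster followed, then chr1:59546410-59546786 with 6.12 and 10.6 and chr3:9366746-9367097 with 7.92 and 10.9. Each of these 10 had a lower fold in control replicate 1 than in control replicate 2, the library whose score ranked them, and none was called with EGF.

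Clustered and solitary narrow peaks differed little in median strength. Members had a median fold of 6.08 (control replicate 1) and 6.24 (control replicate 2), against 6.08 and 6.60 for solitary peaks. On the log2 scale members minus solitary peaks came to 0.00 and -0.081 in these libraries over all 15 chromosomes together. Peak by peak, log2 fold differed between the libraries with an SD of 0.40 in members and 0.363 in solitary peaks. Among members the SD was 0.49 in the 59 whose neighbour shared their control replicate 1 peak. In the other 241 it was 0.365, near that of solitary peaks. The members' median within a chromosome lay below that of solitary peaks on 11 of 15 chromosomes in each library. In reads at the summit the medians were 19 and 18 for members in control replicates 1 and 2, and 18 and 19 for solitary peaks. Peaks of 1 library are not replicates, so no test was made of these differences. The members whose neighbour shared their control replicate 1 peak were weaker in control replicate 2, with a median fold of 5.60, than the other members with 6.29. In control replicate 1, where such neighbours have 1 value in common, the medians were 6.04 and 6.08.

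The position of the summit was less alike between the libraries in members than in solitary peaks. The median shift was 83 bp in members and 60.5 bp in solitary peaks, and 58.0% and 70.7% of summits lay within 100 bp of each other. Where the neighbour shared the control replicate 1 peak the median shift was 159 bp, since several summits of control replicate 2 were set against 1. Among the other 241 members it was 72 bp. The share of summits within 100 bp was 25.4% in the first of these sets and 66.0% in the 241, so most of the contrast with solitary peaks lay in the first.

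Local input, the background recovered at each summit, was slightly higher at members. Its median was 1.34 times the genome-wide background at members in each control list and 1.30 times at solitary peaks, and it moves in steps of whole reads. Over 2 times the background lay 70 members (23.3%) and 205 solitary peaks (17.8%) in control replicate 2, while 35 members (11.7%) and 217 solitary peaks (18.9%) lay at the background itself. The share of shared peaks with a neighbour moved with it: 16.2% (interval 12.2% to 20.9%) at the background, 21.6% (19.3% to 24.0%) above it and up to 2 times, and 26.0% (21.8% to 30.5%) over 2 times. With peaks over 2 times left out, 16.0% of the remaining 1483 shared peaks had a neighbour against 2.21% expected, a ratio of 7.27. Both control lists carry the same genome-wide input value, so they give no separate measure of the input.

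**Figure D4:**
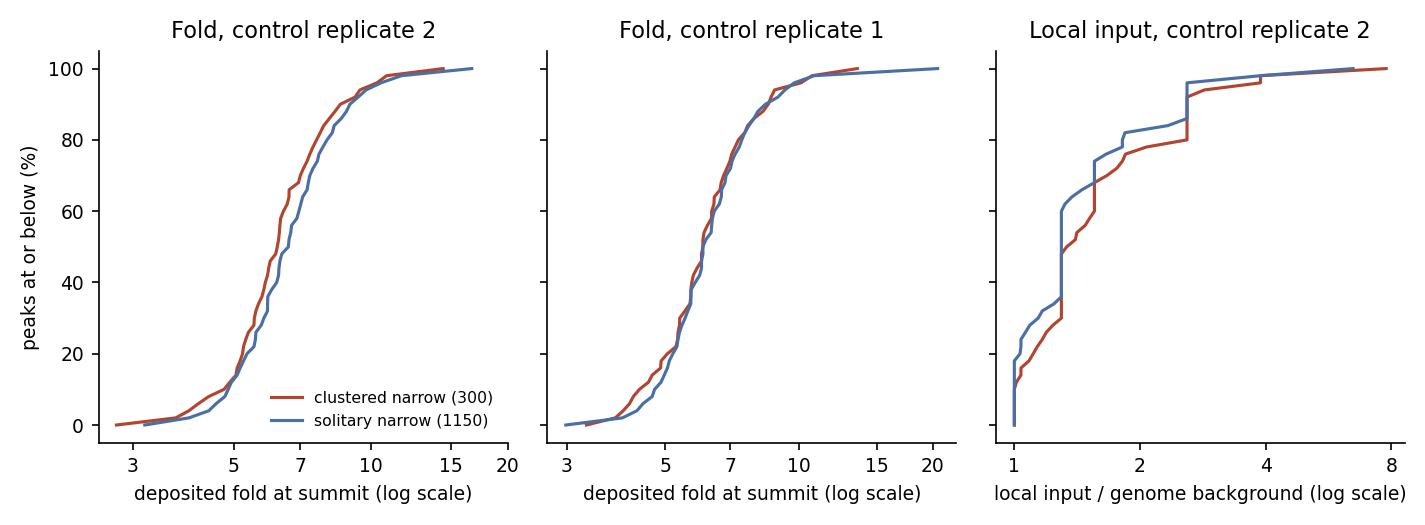
Share of peaks at or below each value (vertical axis, percent) of the deposited fold in control replicates 2 and 1 and of the local input over the genome-wide background in control replicate 2 (horizontal axes, log scale), for the 300 members and the 1150 solitary peaks. The fold curves nearly coincide in control replicate 1 (medians 6.08 and 6.08), and the input curve of the members lies slightly to the right.

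Peaks of a single control library were near a larger share of members than of solitary peaks. They did not count as neighbours under the rule, but they come from the same 2 control lists that chose the members. The comparison is thus not independent of that choice and is a description. On the 15 autosomes 2852 peaks were called in control replicate 2 without overlap in control replicate 1, and 811 the other way round. A peak of the first kind lay within 12.5 kb of 92 members (30.7%, interval 25.5% to 36.2%) and of 205 solitary peaks (17.8%, 15.7% to 20.2%). For the second kind the counts were 32 members (10.7%, 7.41% to 14.7%) and 72 solitary peaks (6.26%, 4.93% to 7.82%), intervals that overlap. Taking either kind, 118 members (39.3%) and 257 solitary peaks (22.3%) had one, and the share was higher for members on 13 of 15 chromosomes and lower on 1. By peaks of control replicate 1 alone it was higher on 8 and lower on 7. Of the 241 members with a neighbour in a separate control replicate 1 peak, 105 (43.6%, 37.2% to 50.1%) had a library-specific peak nearby, and of the 59 whose neighbour shared their control replicate 1 peak 13 (22.0%, 12.3% to 34.7%). The higher share thus lay in the 241, and the difference between these intervals was not tested.

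The shares were also taken by local input. At the background, 9 of 35 members (25.7%, interval 12.5% to 43.3%) and 12.9% of solitary peaks (8.75% to 18.1%) had a library-specific peak nearby, and these intervals overlap. Above it and up to 2 times the shares were 39.5% (32.6% to 46.7%) and 23.9% (20.8% to 27.2%), and over 2 times 45.7% (33.7% to 58.1%) and 26.8% (20.9% to 33.4%). Members of 1 cluster share part of their surroundings, so these intervals are too narrow, and no test was made. It also follows that 22.3% of the solitary peaks are solitary only with regard to peaks found in both libraries.

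The folds of neighbours showed almost no correlation. Over the 184 adjacent pairs in separate control replicate 1 peaks, log2 fold of one peak against the next correlated at r = 0.016 in control replicate 1 and -0.046 in control replicate 2, and the median difference in control replicate 2 was 0.36. The local input, which neighbours share in part, correlated at r = 0.21. Which peak of a pair was stronger was the same in both libraries in 117 of the 184 pairs (63.6%). Pairs share their library and position, so these values are descriptions. The log2 fold of a single member also differed between the libraries. The SD was 0.40 over all 300 members and 0.365 in the 241 whose nearest neighbour lay in another control replicate 1 peak. No pairs of peaks that are not neighbours were set beside these, so a low correlation does not show that neighbours differ.

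With EGF, nearly all members were absent from the lists. Of the 300 members, 2 (0.667%, interval 0.0808% to 2.39%) overlapped a peak of EGF replicate 1 and 0 a peak of EGF replicate 2, for which the interval reaches 1.22%. Among all 1891 shared peaks 1.59% were called in either EGF list, and among solitary peaks 10 of 1150 (0.870%, 0.418% to 1.59%), so the members' share lies within the counting error of that of solitary peaks. By single lists the share of all shared peaks was 1.53% in EGF replicate 1 and 0.212% in EGF replicate 2. Without EGF replicate 1 no member was called. Within 1 kb of an EGF peak lay 6 members (2.00%, 0.737% to 4.30%), 10 solitary peaks (0.870%) and 1.80% of all shared peaks, so the members' share was near that of all shared peaks. Of the peaks on these chromosomes, EGF replicates 1 and 2 hold 30 and 4, and 29 and 4 of them overlapped a shared control peak.

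Both members called with EGF were parts of a stretch that control replicate 1 called as 1 peak. At chr16:86719611-86720035 the summit reads over the genome mean of the library were 32.1 and 22.0 in control replicates 1 and 2 and 20.7 in EGF replicate 1. The local input there was 1.40 times the background in each control list and at the background with EGF, and the deposited folds were 12.4, 8.65 and 7.63. At chr7:80493509-80493750 the reads over the genome mean were 38.0, 22.9 and 24.5, and the folds 10.1, 6.22 and 8.37, with a local input of 2.59 times the background in each control list and 1.19 times with EGF. By the genome mean EGF replicate 1 lay below both controls at the first place and between them at the second. Divided by the local input instead, the reads were 22.9, 15.7 and 20.7 at the first place, where EGF replicate 1 lay between the controls, and 14.7, 8.83 and 20.6 at the second, where it lay above both. The neighbours, 62 and 76 bp away, were not called with EGF, and joined with them the stretches are 687 and 654 bp wide, above the width limit of the members.

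The EGF lists had a shallower input and a higher smallest -log10 p than the control lists. That smallest value over the called peaks was 7.07 and 8.00 in EGF replicates 1 and 2. It is taken from the EGF lists themselves, which hold 57 and 20 peaks, and is not a limit known apart from them. Whether it would be lower in lists with more peaks was not tested, so the shares below hold for these lists only. With the reads and local input of control replicate 2, each relative to its genome mean, 125 members (41.7%) would reach that value at the scaling and input of EGF replicate 1 and 82 (27.3%) at those of EGF replicate 2. With control replicate 1 these were 105 (35.0%) and 70 (23.3%). The same calculation gave 51.9% and 34.4% for solitary peaks with control replicate 2, and 38.7% and 23.3% with control replicate 1. In EGF replicate 1, 2 of the 125 and 2 of the 105 were called. Among solitary peaks that would pass with control replicates 2 and 1, 10 of 597 and 8 of 445 were called. Among all shared peaks that would pass, which include those of 500 bp or wider, it was 28 of 1064 (2.63%) and 24 of 789 (3.04%). In EGF replicate 2, 0 of the 82 and 0 of the 70 were called. The counts were 1 of 396 and 1 of 268 for solitary peaks. For all shared peaks they were 4 of 758 (0.528%) and 3 of 506 (0.593%). For members that do not reach the value in this calculation, absence from an EGF list is not a measure of ARID1A. The members were chosen by being called in both controls, and the EGF group alone has the shallower input, so input and treatment cannot be told apart.

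**Figure D5:**
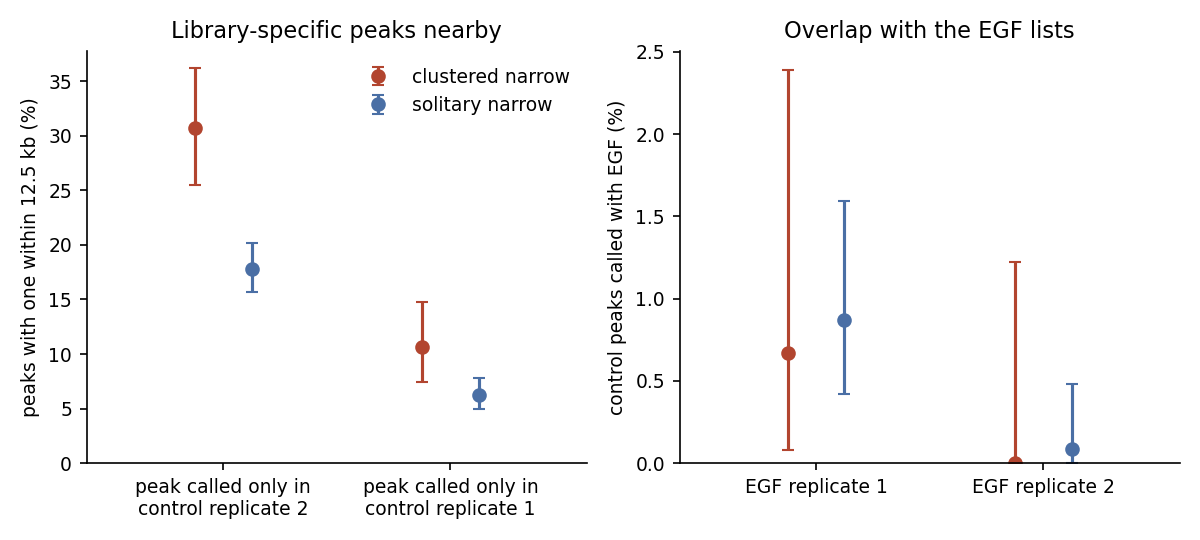
Left, share of peaks (percent) with a peak called only in control replicate 2 or only in control replicate 1 within 12.5 kb; right, share of control peaks called in EGF replicate 1 and 2; for members (red) and solitary peaks (blue), with exact 95% intervals for counting error. On the left the members reach 30.7% and 10.7% against 17.8% and 6.26%; on the right the intervals of both groups overlap.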

How the data were processed

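The authors deposited 1 MACS2 peak list per library, with 10 columns and mm9 positions. Per the submitters' processing notes, the tools named are deepTools 3.0.2, MACS2 2.1.1.20160309.0, Bowtie2 2.3.4.2 and SAMtools, with no role or run options. A peak's deposited score holds the −log10 q times 10, rounded down; the deposited fold is a ratio to local input; the deposited −log10 p and q belong to the summit. These are the authors' values for each peak. Depth is not stated. Whole reads and local input were recovered from fold and p for 100% of peaks (1 factor per library, Poisson tail), giving 1.18, 1.14, 1.06 and 1.23 ChIP reads per 200 bp in control replicates 1 and 2 and EGF replicates 1 and 2, over input backgrounds of 0.771 (control) and 0.506 (EGF).

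Overlap means 1 bp. A gap runs from the end of a peak to the start of the next. Scripts (Python 3.11.15, pandas 2.3.3, scipy 1.17.1) were tested on simulated data. No group test applies, since the rule fixed the members. Named regions are the 5 clusters with the most members, the 10 members of highest score, members called with EGF, and those nearest the limits. Members and lists were chosen with earlier results of these data known. The recovery of reads and the joining inside control replicate 1 peaks were likewise chosen after the data were seen.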

Additional observations from a re-analysis of the deposited data

How the results depend on the processing

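Of 82 alternative values for 7 results, 40 stayed within 1.5 times (number of members), the counting interval (shares and ratio) or the spread between the control lists (fold, input), and 42 moved. The number of members, 300, was 199 at a gap of 5 kb, 129 at a width under 300 bp, 186 with peaks within 500 bp merged, 160 with 50% of both peaks shared and 472 on all 19 autosomes. The share with a neighbour, 21.7%, was 14.5% at 5 kb, 28.6% at 25 kb, 18.4% at a −log10 q of at least 3, 16.3% merged and 14.3% with 50% shared; of the alternatives chosen after the data were seen, it was 18.8% with peaks in 1 control replicate 1 peak joined and 16.0% without peaks of local input over 2 times. The ratio to uniform placement, 7.47, was 11.8 at 5 kb, 5.08 at 25 kb, 5.82 merged, 6.32 with 50% shared, 6.22 on 19 autosomes and, chosen later, 6.62 joined and 5.20 by 5 Mb bins. The log2 fold difference in control replicate 1 was −0.062 at a width under 300 bp and 0.00 as reported.

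The local input of members over that of solitary peaks, 1.03, has no spread of its own, both lists having the same input. It was 1.02 at 5 kb and at 25 kb, 1 at a width under 300 bp, at the stricter q and with 50% shared, 1.035 merged, 1.04 by summits, 1.2 on 19 autosomes, 1.01 joined, and 0.947 with summit reads in its place. The share of members called with EGF, 0.667%, was 0% merged, with 50% shared and joined. Leaving out each library in turn gave 600 to 1433 members, a share of 25% to 35.3%, a ratio of 5.08 to 6.28, an input ratio of 1 to 1.02 and 0% to 0.667% called with EGF; leaving out a control library drops the request for overlap. No paired analysis was possible because no result comes from a test between groups of samples. The fewest reads at a called summit were 11 and 10 in control replicates 1 and 2 and 21 in each EGF list.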
